A study of Mus musculus with 11 samples.

Results

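The comparison set 6 arrays of mouse induced pluripotent stem cells, taken as 1 group, against 3 arrays of mouse embryonic stem cells (mESC). The induced cells came from 2 sources. ViPSC were derived from ventricular myocytes (VM) and TiPSC from tail tip fibroblasts (TTF), with 3 arrays each. The source cells themselves, taken from pups on postnatal day 1, had 1 array each and did not enter the comparison. All cells carried the same mixed C57/Bl and BlackSwiss background, and the embryonic cells were labelled as genetically matched. Induced and embryonic cells alike grew on irradiated mouse embryonic fibroblast feeders with serum and LIF, and a differential plating step served to remove feeder cells ahead of the RNA extraction. The labels used here do not give the reprogramming factors, the sex of the lines, or whether the 3 arrays of a line were separate cultures or clones, so p-values measure only the spread between these arrays, which may be technical. Total RNA was hybridised to Affymetrix mouse 430 2.0 arrays. Each level below is a log2 intensity, and each difference is the mean of the 6 induced arrays minus the mean of the 3 mESC arrays in log2 units, so that a difference of 1 is 2-fold.

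Of 17403 autosomal genes measured, 691 had all 6 induced arrays on the same side of all 3 mESC arrays, which is 3.97% of the genes. Of these, 407 were higher in the induced cells (2.34%) and 284 were lower (1.63%). The side and the size of these genes follow from that rule and are a description. A limma fit over all genes, with Benjamini-Hochberg adjustment over the whole table and an adjusted p under 0.05, called 9 autosomal genes (0.0517%), 4 higher (0.023%) and 5 lower (0.0287%). All 9 were among the 691. The lower genes were Ipp, Rian, Mirg, Mpc1 and Vps52, and the higher ones Iqcc, 9930104L06Rik, Mnd1 and Crocc.

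Induced pluripotent stem cells are somatic cells returned to a state like that of the early embryo by forced expression of a few transcription factors, and they are judged against embryonic stem cells because both can form all tissues of the body. The Dlk1-Dio3 cluster is an imprinted domain in which the copy from the father expresses protein-coding genes such as Dlk1, and the copy from the mother expresses noncoding RNAs. Meg3, Rian and Mirg are the long noncoding RNAs of the maternal copy, and many microRNAs are processed from the same transcribed stretch. Low levels of these RNAs have been described before in many mouse induced lines.

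Meg3, Rian and Mirg are the only 3 measured neighbours in a row that were without overlap in the same direction, and Ipp had the widest separation of all genes. The 250 bases before the annotated start of each are shown because they flank the annotated starts of the transcripts that separated the groups most clearly. They come from RefSeq on build GRCm38.p6, all genes lie on the plus strand, and capitals mark the CG dinucleotides, the sites of DNA methylation. The Meg3 window is chr12:109540746-109540995, that of Rian chr12:109603695-109603944, that of Mirg chr12:109734731-109734980, and that of Ipp, given here for 213 bases, chr4:116507299-116507511.
Meg3: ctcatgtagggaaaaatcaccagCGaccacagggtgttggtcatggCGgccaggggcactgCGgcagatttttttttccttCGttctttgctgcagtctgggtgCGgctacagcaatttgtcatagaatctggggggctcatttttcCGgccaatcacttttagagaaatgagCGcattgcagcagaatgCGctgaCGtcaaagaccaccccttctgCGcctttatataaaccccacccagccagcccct
Rian: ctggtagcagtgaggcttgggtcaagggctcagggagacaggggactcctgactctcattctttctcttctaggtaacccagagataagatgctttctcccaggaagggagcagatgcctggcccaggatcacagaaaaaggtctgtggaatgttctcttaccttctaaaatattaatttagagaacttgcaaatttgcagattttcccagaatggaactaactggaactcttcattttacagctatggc
Mirg: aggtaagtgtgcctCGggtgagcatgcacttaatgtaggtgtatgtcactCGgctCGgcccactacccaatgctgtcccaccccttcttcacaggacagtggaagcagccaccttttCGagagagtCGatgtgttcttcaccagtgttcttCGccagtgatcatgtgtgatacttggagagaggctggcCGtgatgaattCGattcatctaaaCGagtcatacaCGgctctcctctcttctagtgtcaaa
Ipp: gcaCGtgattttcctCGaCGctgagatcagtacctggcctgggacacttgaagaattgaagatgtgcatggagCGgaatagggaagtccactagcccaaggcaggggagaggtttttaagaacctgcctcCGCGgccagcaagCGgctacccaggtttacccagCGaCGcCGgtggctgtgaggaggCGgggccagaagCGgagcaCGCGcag

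The Meg3 window held 10 CG dinucleotides, as did that of Mirg, and 37.8% of 32851 RefSeq windows of this length held at least as many. The Rian window held none. The Ipp stretch held 14. The letters TATAAA, searched on both strands, occurred in the Meg3 window and in 12.4% of all windows. The window before Mirg also spans the microRNA hairpins Mir668 and Mir485, and 57 annotated hairpins lie between the start of Meg3 and the end of Mirg, 54 of them on the same strand as these genes. Across the genes without overlap, the median number of CG dinucleotides was 15 for the 315 higher genes with a window and 14 for 230 lower genes, against 13 for all 13832 autosomal genes with a window. No methylation was measured in this series.

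The embryonic arrays were less alike than the induced ones, which bears on every count. The mean Pearson correlation over autosomal genes was 0.998 within ViPSC, 0.995 within TiPSC and 0.989 within mESC. mESC array 1 correlated at 0.993 on average with the induced arrays, compared with 0.989 with mESC array 2 and 0.985 with mESC array 3, while arrays 2 and 3 correlated at 0.993 with each other. For 62.4% of the higher and 49.6% of the lower genes without overlap, mESC array 1 was the embryonic array nearest to the induced ones. Without it, 3897 genes were without overlap and 1304 passed, 911 higher and 393 lower. All 9 genes were among them, with differences from -4.72 for Ipp to 1.10 for Iqcc. Leaving out any other single array gave 799 to 1405 genes without overlap and 5 to 11 genes that passed. The count without overlap was 1239 without TiPSC array 3, 1152 without mESC array 2 and 1405 without mESC array 3, and 5 genes passed without each of ViPSC array 2, ViPSC array 3, TiPSC array 2 and mESC array 2.

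**Figure D1:**
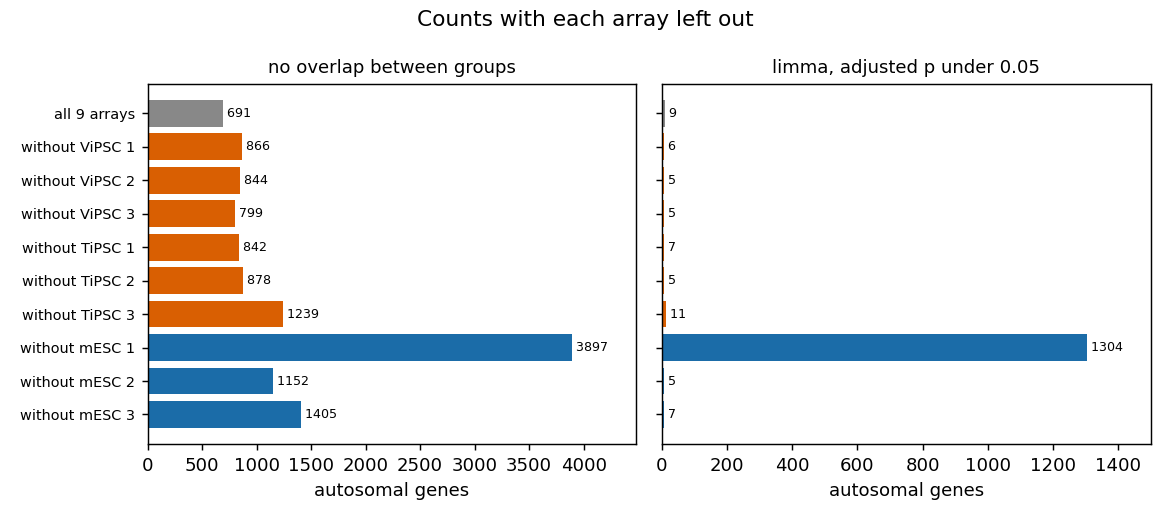
Autosomal genes without overlap between the induced and mESC arrays (left, number of genes) and passing limma at an adjusted p under 0.05 (right, number of genes), with all 9 arrays and with each array left out. Both counts are highest without mESC array 1, at 3897 and 1304.

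The split between higher and lower also moved with scaling. With each array centred on the median of its expressed autosomal genes, 867 genes were without overlap, 258 higher and 609 lower, so that the share of higher genes was 29.8% in place of 58.9%. The median difference was 0.02 over all autosomal genes and 0.06 over the 7202 with a mean level of at least 7. All 9 genes passed under that centring and kept their sign in every alternative in which they were tested. Most genes without overlap were separated by little. Their median difference was 0.32 for the higher and -0.29 for the lower, and 10 higher and 17 lower genes reached 2-fold. Just inside the rule lay Nudt9 (0.41) and Alg1 (0.61) on the higher side and Kcnq1 (-0.18) and Map1lc3a (-0.19) on the lower. Just outside, with groups that just met, lay Zfp869 (0.38), Hao1 (0.11), Nxnl1 (-0.12) and Plekhf1 (-0.37).

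The noncoding RNAs of the Dlk1-Dio3 cluster were low in every induced array of both lines. Rian fell by 3.58 ± 0.30 (SE, n = 6 and 3) on the log2 scale (limma, adjusted p = 0.0034). Its levels were 5.69, 5.63 and 5.58 in ViPSC and 5.94, 5.72 and 5.20 in TiPSC, against 10.16, 8.49 and 8.99 in mESC. The lowest mESC array thus lay well above the highest induced array. Mirg fell by 2.57 ± 0.34 (adjusted p = 0.0462, limma). It stood at 4.28, 4.23 and 3.94 in ViPSC and 4.27, 4.09 and 4.13 in TiPSC, and at 7.91, 6.28 and 5.99 in mESC. Meg3 had a difference of -2.69 ± 0.39 and missed the threshold (limma, adjusted p = 0.0602). Its levels were 6.38, 7.20 and 6.98 in ViPSC, 7.41, 6.76 and 6.24 in TiPSC and 10.61, 9.16 and 8.80 in mESC, so the groups did not overlap either. For all 3 RNAs mESC array 1 was the highest embryonic array, and without it the differences were -3.11 for Rian, -1.98 for Mirg and -2.15 for Meg3. Rian and Mirg were chosen with earlier results of these data known, so the list that holds them is not independent evidence.

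Other probe sets of the same genes gave the same side. All 4 probe sets of Rian and both of Mirg were lower in the induced arrays without overlap. Of 11 probe sets of Meg3, 11 had a lower induced mean and 9 were without overlap. The line means lay close together. Against the same mESC arrays, ViPSC differed by -3.58 and TiPSC by -3.59 for Rian, by -2.58 and -2.56 for Mirg, and by -2.67 and -2.72 for Meg3. Both source cells expressed these RNAs. The TTF array had 12.27 for Rian, 12.64 for Meg3 and 8.45 for Mirg, and the VM array had 8.52, 9.62 and 5.19.

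The genes on either side of the 3 RNAs did not separate the groups. Dlk1, the paternally expressed ligand-like protein of the cluster, was low in all pluripotent arrays. Its levels were 3.87 to 4.22 in induced and 4.02 to 4.09 in mESC arrays, and 5.66 in TTF and 5.49 in VM. The difference between induced and mESC arrays was -0.03 ± 0.09 (limma, adjusted p = 0.932). The sign of that value turned when only TiPSC arrays were used. Wdr25, the neighbour before Dlk1, differed by 0.17 ± 0.08, and its groups overlapped. On the far side, 3110009F21Rik differed by 0.07 ± 0.07 and Dio3os, the antisense transcript of the deiodinase gene at the other end of the cluster, by -0.02 ± 0.08. In mESC 3110009F21Rik averaged 3.28 and Dio3os 4.16, near background like Dlk1. A fall of these genes in the induced arrays could hardly have been seen. Of the list of 7 genes of the cluster, 4 were measured, and 2 of these passed, both lower.

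**Figure D2:**
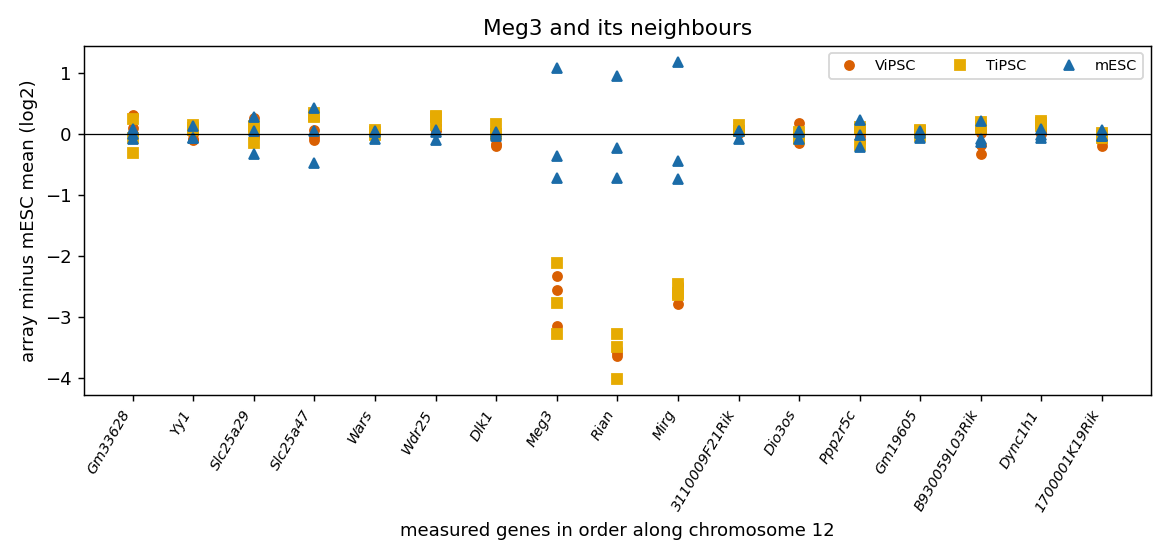
Each array's level minus the mESC mean (log2) for Meg3, Rian, Mirg and the measured genes around them, in order along chromosome 12. The 6 induced arrays lie below the 3 mESC arrays at Meg3, Rian and Mirg, with mean differences of -2.69, -3.58 and -2.57, and overlap them at the neighbours. Dlk1, 3110009F21Rik and Dio3os were near background in the arrays shown, so a fall there could hardly be seen.

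Ipp had the largest difference of the 17403 genes. It encodes a kelch-repeat protein, and its name refers to an intracisternal A particle, a mouse retroelement, that promotes a transcript of the gene. Its levels were 5.95, 5.87 and 6.11 in ViPSC and 5.97, 5.75 and 5.83 in TiPSC, against 9.95, 10.63 and 10.64 in mESC. It fell by 4.49 ± 0.15 (limma, adjusted p = 9.73e-07), and the gap between the lowest mESC and the highest induced array was 3.84. Ipp passed in all 25 fits that were run. Both source arrays were low as well, at 5.38 in TTF and 4.89 in VM. Only 1 probe set represents the gene on the array.

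Of the other genes that passed, 3 lie on chromosome 4 as well, and all 3 were higher in the induced cells. Iqcc, which codes for a protein with an IQ motif of the kind that binds calmodulin, rose by 1.06 ± 0.10 (limma, adjusted p = 0.00424). It was at 6.63, 6.68 and 6.42 in ViPSC, 6.31, 6.41 and 6.44 in TiPSC and 5.51, 5.43 and 5.33 in mESC. Crocc, which codes for rootletin of the ciliary rootlet, rose by 0.80 ± 0.08 (adjusted p = 0.00493, limma). Its induced arrays ran from 6.98 to 7.22 and its mESC arrays from 6.22 to 6.38. The uncharacterised 9930104L06Rik rose by 0.90 ± 0.10 (adjusted p = 0.0179, limma), from 4.91, 4.98 and 5.25 in mESC to between 5.71 and 6.09 in the induced arrays. The TTF array was near the induced ones for Iqcc, at 6.85, and the VM array near the embryonic ones, at 5.42. On build GRCm38.p6, Ipp starts at 116507512, 9930104L06Rik at 124936984, Iqcc at 129615617 and Crocc at 141016637, so the 4 genes are not neighbours and 359 measured genes lie among them. Of these 359 genes, 5.85% were without overlap, and of the 724 genes outside the span 4.97%, beside 3.97% of all autosomal genes. Chromosome 4 as a whole had 34 higher (3.13%) and 27 lower (2.48%) among 1087, beside 2.34% and 1.63% over all autosomes.

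The remaining 3 genes lie on chromosomes 17 and 3. Mpc1, a subunit of the carrier that brings pyruvate into mitochondria, fell by 1.12 ± 0.15 (limma, adjusted p = 0.0462). It was at 7.79, 7.74 and 7.92 in ViPSC, 7.68, 7.55 and 7.63 in TiPSC and 8.67, 9.27 and 8.56 in mESC, and both source arrays were higher still, at 10.07 in TTF and 11.68 in VM. Vps52, a subunit of a complex that tethers vesicles returning to the Golgi, fell by 0.75 ± 0.08 (limma, adjusted p = 0.0113), with induced arrays at 5.86 to 5.97 and mESC arrays at 6.50 to 6.80. Its second probe set went the other way, higher in the induced arrays without overlap by 0.25, so the direction for Vps52 depends on the probe set. Mnd1, which acts with Hop2 in strand exchange during meiotic recombination, rose by 0.82 ± 0.11 (limma, adjusted p = 0.0453). It was at 8.95, 8.93 and 8.83 in ViPSC, 8.99, 9.05 and 8.75 in TiPSC and between 7.93 and 8.36 in mESC, and far lower in the sources, at 5.52 in TTF and 4.32 in VM.

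Crocc, Ipp, Iqcc and Rian still passed with each single array left out. Mirg and Mpc1 passed in 14 of 24 and 13 of 25 fits, and Mnd1, 9930104L06Rik and Vps52 in 15 of 25, 15 of 24 and 20 of 25. Adjusted p ranged from 0.000131 to 0.214 for Mirg, from 0.00388 to 0.191 for Mpc1 and from 0.00187 to 0.235 for Vps52.

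**Figure D3:**
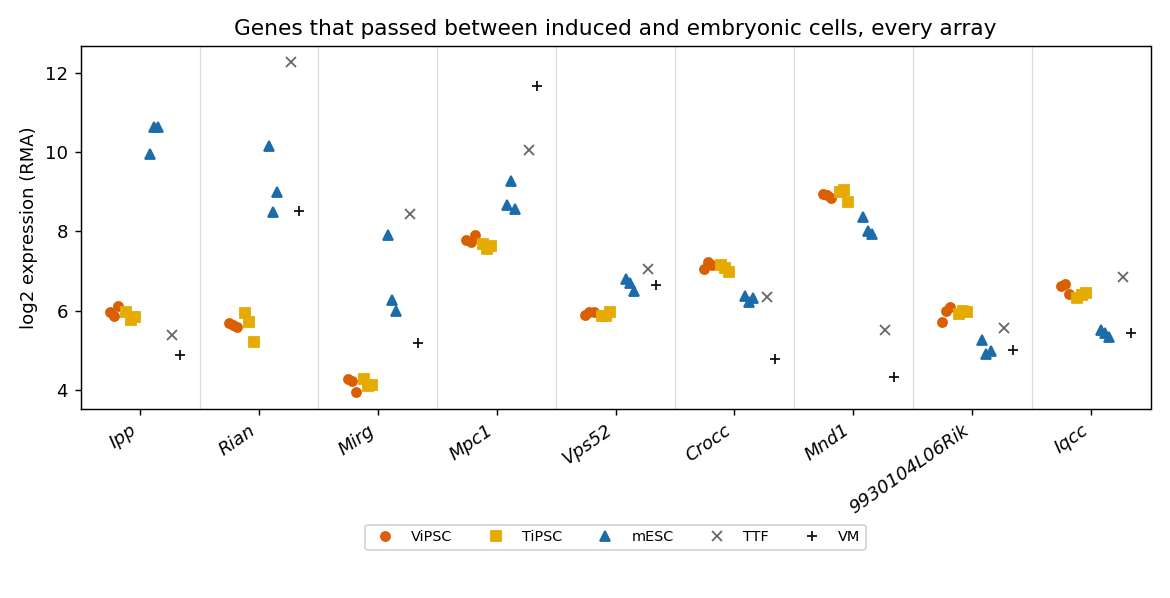
Log2 level of the 9 genes that passed, in every array, ordered by the size of the difference, with TTF and VM shown for reference. The 6 induced arrays of each gene lie on the same side of all 3 mESC arrays, from Ipp (-4.49) to Iqcc (1.06).

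The largest differences among the higher genes that did not pass were those of Acp5, Plac8, Tmem30b, Trpc2, Cbr4, Esrp1, Eno3 and Mcf2l. Acp5, tartrate-resistant acid phosphatase, had levels of 9.23, 9.35 and 9.33 in ViPSC, 8.50, 8.70 and 8.31 in TiPSC and 7.32, 6.86 and 7.32 in mESC. Its difference was 1.74 ± 0.25 (limma, adjusted p = 0.0602), and it differed between the induced lines too, by 0.80 (adjusted p = 0.016 in a limma fit with 3 group means). Plac8, named for its expression in placenta, had a difference of 1.46 and embryonic levels of 9.20, 8.58 and 7.42, with array 1 nearest to the induced range of 9.51 to 10.41. Esrp1, a splicing regulator of epithelial cells, had 10.24 to 10.46 in the induced arrays and 9.93, 9.24 and 8.73 in mESC, a difference of 1.06 (limma, adjusted p = 0.138). The sources were at 3.02 and 3.12. Tmem30b, a partner of lipid flippases, differed by 1.26 and Cbr4, a mitochondrial carbonyl reductase, by 1.09. Eno3, the muscle enolase, differed by 1.05 and stood at 13.57 in VM, far above all pluripotent arrays. Mcf2l differed by 1.04.

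Among the lower genes that did not pass, the largest differences were those of Meg3, Coro2b, Apod, Tcstv1, Zfp979, Amn and Mb21d2. Coro2b, a coronin that binds actin, was at 5.76 to 6.40 in the induced arrays and at 6.50, 8.65 and 7.91 in mESC (difference -1.55). Apod, a lipid-binding lipocalin, also differed by -1.55, with 5.49, 5.35 and 5.35 in ViPSC, 4.73, 4.55 and 4.31 in TiPSC and 6.04, 6.54 and 6.95 in mESC. Tcstv1, a gene of two-cell embryos and of the rare two-cell-like state, rested on a single array. It was at 7.22 in mESC array 2, at 3.43 and 3.71 in the other mESC arrays and at 3.24 to 3.38 in the induced arrays. Zfp979, a zinc-finger gene, was at 8.76, 10.09 and 10.83 in mESC and at 8.48 to 8.58 in the induced arrays. Amn, a part of the receptor for vitamin B12, differed by -1.23 ± 0.18 (limma, adjusted p = 0.0611), with 6.10 to 6.35 in the induced and 8.03, 6.98 and 7.39 in the mESC arrays. Mb21d2 differed by -1.22 (limma, adjusted p = 0.0895).

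Pou5f1, Sox2 and Nanog were high in all 9 pluripotent arrays and low in both sources, which checks the pluripotent labels against the source labels. It cannot check the induced against the mESC labels, as these genes were high in both. Some of the pluripotency genes were fixed genes, named whether or not they separated the groups. Of these, 8 overlapped between the groups, while Dppa3, described with the list below, was without overlap and higher in the induced arrays. Pou5f1, the Oct4 gene at the centre of the pluripotency network, was at 12.73 to 12.97 in the induced arrays, at 12.96 to 13.05 in mESC, and at 3.94 and 3.73 in the sources. The difference was -0.18 ± 0.08 (limma, adjusted p = 0.373). Its groups overlapped by about 0.01, and under centring they did not overlap. Sox2, the partner of Oct4, differed by -0.22, with 11.92 to 12.16 against 12.12, 12.22 and 12.46. Nanog, which guards the naive state, was at 12.37 to 12.76 in the induced arrays and at 12.33, 12.88 and 13.15 in mESC, so the embryonic arrays spanned the induced range. Klf4 differed by -0.39, Myc by 0.19 and Zfp42, the Rex1 gene, by -0.41. Zfp42 was at 11.51 in mESC array 1 and at 9.75 and 9.39 in the others, and without array 1 its difference was 0.23. Esrrb differed by -0.02 and Lin28a by 0.05. Adjusted p for the 8 genes that overlapped ran from 0.369 for Sox2 to 0.954 for Esrrb (limma). Without mESC array 1, Myc alone of them passed, at 0.55 (limma, adjusted p = 0.00607). With all arrays its adjusted p was 0.771 (limma), and it passed in 1 of 25 fits. For Myc, mESC array 1 was at 8.75, above all induced arrays, and the other mESC arrays were at 7.74 and 7.57. That array was singled out from these same data, so nothing is read from the result without it.

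Of 36 measured genes of the pluripotency list, 4 were without overlap and none passed limma, with 3 higher and 8 lower at an unadjusted p under 0.05. These are 11.1% of the list without overlap, beside 3.97% of all autosomal genes, and at the unadjusted p all genes had 7.65% higher and 3.87% lower. The list's median difference was -0.09 against 0.02 for all genes. The summed linear intensity of the list did not overlap, at 122144 to 128297 in the induced arrays and 128740 to 137117 in mESC, with mESC array 1 the lowest embryonic array. Dppa3, the Stella gene of naive cells and germ cells, was at 11.33 to 11.65 in the induced and 11.20, 10.54 and 11.24 in the mESC arrays, a difference of 0.50. Tcl1, an activator of Akt in stem cells, was at 9.27 to 9.62 against 9.67, 10.87 and 10.78, a difference of -0.99. Tbx3, a transcription factor of the naive network, was at 8.85 to 9.32 against 9.54, 10.34 and 10.09, a difference of -0.86. Tcl1 and Tbx3 passed without mESC array 1, at -1.38 and -1.09, and each passed in 2 of 25 fits. Trim28, the corepressor that silences retroelements, differed by 0.08, and its groups overlapped under centring.

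**Figure D4:**
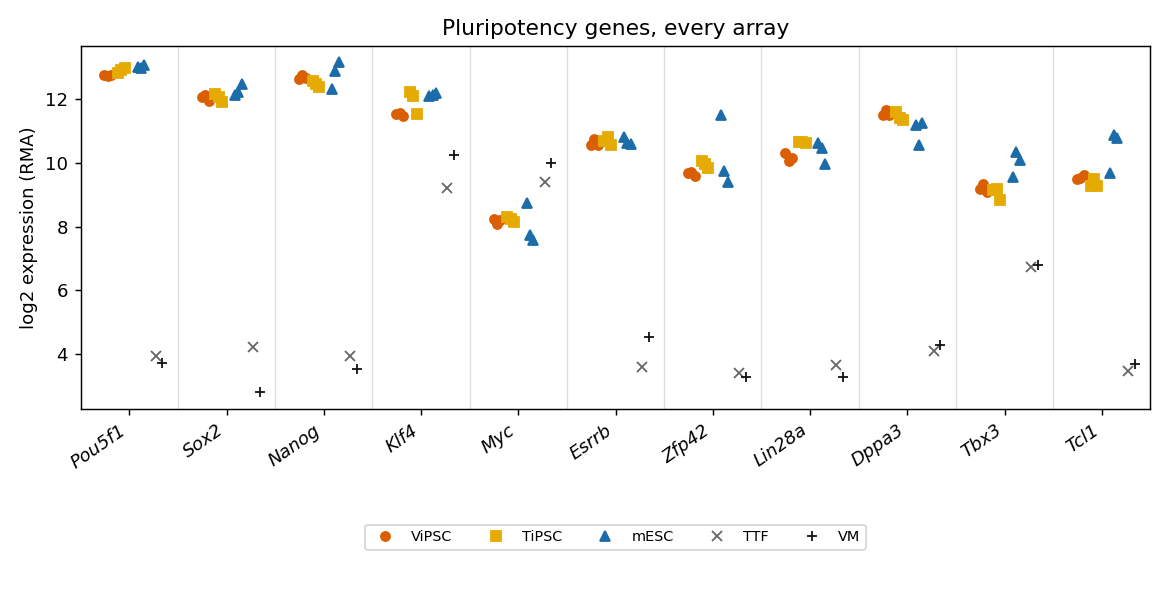
Log2 level of 11 pluripotency genes in every array. The induced and mESC arrays overlap for Pou5f1 to Lin28a and stand apart for Dppa3, Tbx3 and Tcl1, and both sources lie far below for Pou5f1, Sox2 and Nanog. For Myc both sources lie above all pluripotent arrays.

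Chromatin and imprinted genes held further members without overlap, none of which passed apart from Rian and Mirg. At an unadjusted p under 0.05 (limma), 1 polycomb gene was higher and 3 lower, 3 DNA methylation genes were higher and 0 lower, and 4 imprinted genes outside the cluster were higher and 6 lower, where all autosomal genes had 7.65% higher and 3.87% lower. The shares without overlap were 6.67% of the polycomb genes, 2 of 20 for DNA methylation and 8.33% of the imprinted genes, each from 2 to 4 genes, beside 3.97% of all genes. Of 30 polycomb genes, Bmi1 and Epop were without overlap. Bmi1, a core subunit of polycomb complex 1, was at 5.72 to 6.28 in the induced arrays and at 6.57, 7.19 and 7.30 in mESC, a difference of -0.95 seen without overlap in both of its probe sets. Epop, an accessory factor of polycomb complex 2, differed by -0.65. Of 20 DNA methylation genes 2 were without overlap, both higher, and Dnmt1, the maintenance methyltransferase, differed by 0.15 with 11.10 to 11.23 against 10.95 to 11.10. The deacetylase Hdac1 differed by 0.39, with mESC arrays at 10.39 to 11.13, array 1 the lowest. The demethylase Kdm5a and the acetyltransferase Ep300 differed by -0.17 and -0.14. Of 48 imprinted genes outside the cluster, Impact (-0.60), Ube3a (-0.54), Kcnq1 (-0.18) and Mkrn3 (0.24) were without overlap. Impact, a regulator of translation, was at 9.80 to 10.32 against 10.44 to 10.73. Ube3a, a ubiquitin ligase imprinted in neurons, was at 9.99 to 10.40 against 10.52 to 10.95. Only 1 of 6 probe sets of Ube3a was without overlap, 1 of 3 of Impact and 1 of 6 of Kdm5a. The induced mean was lower in 4, 2 and 5 of these probe sets. Dnmt1 had 2 of 3 without overlap. Under centring Hdac1, Kcnq1 and Mkrn3 overlapped.

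Of 35 germline genes, Stra8 and Sycp3 were without overlap (5.71%). Of 33 p53 targets and cyclin-dependent kinase inhibitors, Cdkn2a was (3.03%), and of 34 genes of S phase and mitosis none was, beside 3.97% of all autosomal genes. Stra8, which licenses meiosis under retinoic acid, averaged 7.03 ± 0.04 (SD, n = 3) in ViPSC and 5.56 ± 0.24 (SD, n = 3) in TiPSC, with mESC arrays at 7.26, 7.20 and 7.64. Its pooled difference of -1.07 was -0.34 for ViPSC and -1.81 for TiPSC. Sycp3, a component of the synaptonemal complex, was at 8.06 to 8.30 against 8.54 to 8.84 in both lines alike, a difference of -0.53 (limma, adjusted p = 0.0895). Cdkn2a, the locus of the p16 and p19 tumour suppressors, was at 7.38 to 7.86 against 8.25, 8.45 and 8.85, a difference of -0.87 (adjusted p = 0.0895, limma). In TTF it stood at 11.71 and in VM at 3.94.

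Signalling, lineage and metabolic lists gave scattered members. Each list with a gene named here held 1 or 2 members without overlap. These were 2.70% (stress genes with Phgdh) to 9.52% (retinoid genes) of a list, beside 3.97% of all autosomal genes. The lists of Nodal and BMP, primitive streak, neural and endothelial genes, among others, held none. Axin2, a Wnt target, differed by 0.74, and its ViPSC arrays at 6.89 to 6.95 lay just above mESC array 1 at 6.87. Fgfr2, a receptor for fibroblast growth factors, was at 8.44 to 8.79 against 8.13 to 8.42. Sox7, an endoderm and endothelial factor, was at 5.86 to 6.33 against 6.36 to 6.95. Rxra, a retinoid receptor, differed by -0.64. Psmb9, a subunit of the immunoproteasome, was at 6.85 to 7.63 against 6.80, 6.15 and 5.98, a difference of 0.86. Cbr1, a carbonyl reductase, differed by 0.58 and overlapped under centring, as did Phgdh, the first enzyme of serine synthesis, at 0.34. The heart genes Tnni3, cardiac troponin I, and Ryr2, the cardiac calcium release channel, stayed far below the VM levels of 14.22 and 11.24. Tnni3 was at 4.21 to 4.83 against 3.82 to 4.06, and Ryr2 at 3.53 to 3.74 against 3.87 to 4.25.

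Across all 40 gene lists, 44 of 988 autosomal members were without overlap (4.45%), beside 3.97% of all autosomal genes, and 2 passed. The lists were chosen with earlier results known. In 39 lists none passed limma. Among those, at an unadjusted p under 0.05, the fibroblast and feeder list had 10 higher and 1 lower of 37, glycolysis and hypoxia 10 and 1 of 33, keratinocyte and epithelial genes 9 and 1 of 28, and immediate early genes 7 and 0 of 25, where all autosomal genes had 1331 higher (7.65%) and 673 lower (3.87%). For all 4 lists the summed linear intensity of mESC array 1 lay within the induced range and arrays 2 and 3 below it. It was 106287 against 103216 to 109218 for glycolysis and hypoxia, 27840 against 22508 to 33335 for keratinocyte and epithelial genes, and 30632 against 27845 to 31846 for immediate early genes. The largest list median below 0 outside the imprinted cluster was that of the two-cell-like genes, at -1.07, with 10 of 11 lower in mean. Its array medians were 7.02 in mESC array 2, 3.65 and 4.45 in the others and 3.58 to 4.10 in the induced arrays. By these medians mESC array 1 lay within the induced range for that list, and array 2 stood far above it. By summed linear intensity all mESC arrays lay above the induced range, at 3205, 4869 and 3237 against 2755 to 3078.

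Markers of feeder cells had mostly higher means in the induced arrays, although none passed. Of 37 fibroblast and feeder genes, 31 had a higher mean in the induced cells, with a median difference of 0.32, and under centring 27 did. Of all autosomal genes, 56.2% had a higher mean. Against the same mESC arrays the median of the list was 0.11 for ViPSC and 0.45 for TiPSC. Their summed linear intensity was 21296 to 27616 in the induced arrays and 16679 to 21779 in the mESC arrays, so that mESC array 1 lay within the induced range, compared with 365619 in TTF. Col5a2, a fibrillar collagen chain, was the single member without overlap (2.70% of the list, beside 3.97% of all genes), at 7.86 to 8.80 against 7.32 to 7.76. Of 14 smooth muscle genes, 12 had a higher induced mean, with a median difference of 0.19. The part of these markers in the results was not tested. In RNA from whole cultures, fewer cells of a type and less RNA per cell cannot be told apart. Rian, Meg3 and Mirg, which were lower in the induced arrays, had their highest levels of all 11 arrays in TTF. That is 1 array of tail tip fibroblasts. The embryonic fibroblast feeders had no array, so their level of these RNAs is not known, and a part of feeder RNA in these levels was not tested.

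The source cells are described against the mESC mean, which the choice of the genes also used, so nothing is read from these shares. Of the 407 higher genes, 2.95% had both source arrays at least 2 log2 units above the mESC mean, as did 2.95% of all autosomal genes. At least 1 source was that far above for 12.8% of them and 11.8% of all genes, and the TTF array was above the mESC mean by any amount for 51.4% and 44.7%. For the 284 lower genes, 6.69% had both sources that far below, beside 3.40% of all genes, and 0.70% both that far above, beside 2.95%. The TTF array was above the mESC mean for 36.3% of the lower genes. The sources have 1 array each, so these shares have no replicate check. Other probe sets of the same genes, measured on the same arrays, shared the sign in 72.7% of 366 cases for the higher and 69.7% of 346 cases for the lower genes, where 51.7% and 48.3% of the probe sets not chosen for their gene were higher and lower. They were also without overlap on that side in 11.5% and 12.4%, beside 1.95% and 1.56% of those not chosen, and 2 and 4 were without overlap on the opposite side.

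The genes without overlap were spread unevenly over the chromosomes. Chromosome 8 had 33 higher genes (3.54%) and 1 lower (0.11%) among 932, beside 2.34% and 1.63% over all autosomes. The median difference of its expressed genes was 0.15, which was 0.03 for ViPSC and 0.26 for TiPSC against the same mESC arrays. Chromosome 11 had 27 higher (1.87%) and 9 lower (0.62%) among 1443, both below the shares over all autosomes, with medians of 0.37 for ViPSC and -0.08 for TiPSC. Chromosome 17 had the highest share of higher genes, 4.20%, and chromosome 6 the highest share of lower genes, with 31 lower (3.1%) and 11 higher (1.11%) among 992. Without chromosomes 8 and 11, 621 genes were without overlap and 15 passed, the 9 genes among them.

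**Figure D5:**
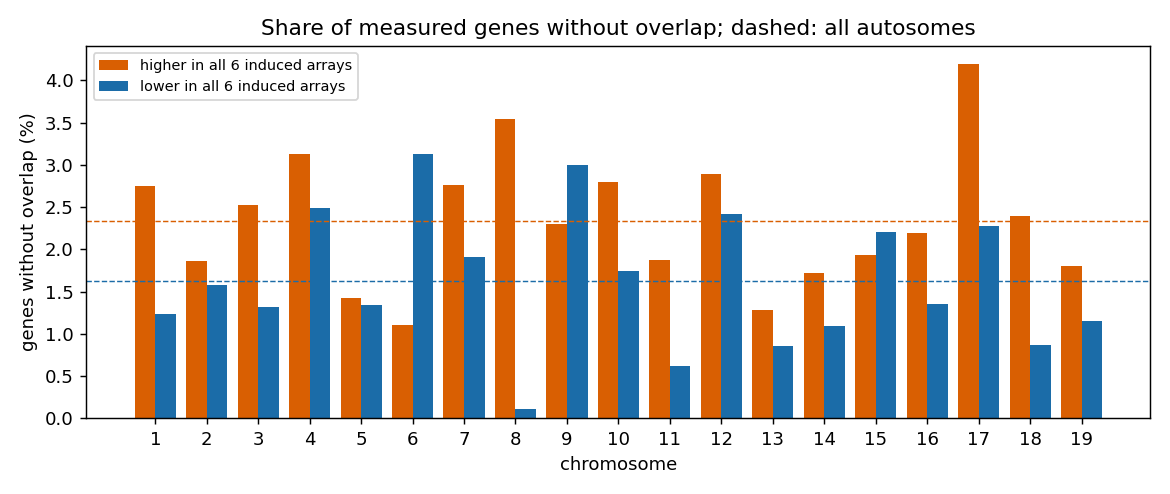
Share of measured autosomal genes (%) on each chromosome that were higher or lower in all 6 induced arrays than in all 3 mESC arrays, with dashed lines at the shares over all autosomes (2.34% and 1.63%). Chromosome 17 has the highest share of higher genes, 4.20%, and chromosome 8 has 1 lower gene.

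The pooled induced group spans a difference between its lines. ViPSC and TiPSC differed from each other at 988 autosomal genes (5.68%) in a limma fit with 3 group means. In the same fit ViPSC differed from mESC at 259 higher (1.49%) and 108 lower genes (0.621%) and TiPSC at 53 higher (0.305%) and 56 lower (0.322%), with the mESC arrays shared between both. When the line difference was taken out of the spread in this way, 37 genes passed for the mean of both lines against mESC, 15 higher and 22 lower, and the 9 genes were among them. Meg3, Acp5, Amn, Apod, Mb21d2, Cdkn2a and Stra8 were also among the 37. Folr1, a folate receptor, named here after its values were seen, was another, at 8.79 to 9.25 in the induced arrays against 9.69, 10.24 and 10.12 in mESC. Of the 691 genes without overlap, 20 differed between the lines (2.89%).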

How the data were processed

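Total RNA was measured on Affymetrix mouse 430 2.0 arrays, 1 array a sample. The deposited values are log2 expression levels, made by the authors with RMA, per the submitters' processing notes. Its version and annotation are not given in the sources used here. Of 45101 probe sets, 34945 carried 1 gene symbol in the platform annotation, and 34741 of these matched a RefSeq gene table of build GRCm38.p6. Each of 18193 genes was read from the probe set that was brightest on average across the 11 arrays, of which 17403 are autosomal.

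Arrays were grouped by their titles. The main test was limma 3.58.1 in R 4.3.3 (lmFit and eBayes, 6 induced against 3 mESC arrays, two-sided, Benjamini-Hochberg adjustment over all genes, threshold 0.05), and it was tested on simulated data. No filter on low values was used. The number of arrays limits the precision. Source arrays had 1 array each and no test. Motifs were counted in the 250 bases before each gene start.

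Named genes were those that passed, filled up to the 12 largest differences in each direction, the 5 widest gaps, up to 4 members without overlap of each list, 13 fixed genes, those just inside and outside the rule, and runs of at least 3 neighbours. The members and lists were chosen with earlier results of these data known. Alternatives covered the design, spread, probe set, scaling, filter, chromosomes, line and each array left out.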

Additional observations from a re-analysis of the deposited data

Results flagged for a closer look

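Among 77 named genes, 6 had an induced array far from the other 5, by Dixon's 95% rule, which chance meets in about 1 in 20 groups. Cbr4 was at 8.73 in TiPSC array 3, with the others at 8.45 to 8.55. Zfp979 was at 8.48 in ViPSC array 3, with the others at 8.57 to 8.58. Nxnl1 was at 4.90 in TiPSC array 2, with the others at 5.03 to 5.07. Impact was at 10.32 in ViPSC array 3, with the others at 9.80 to 9.98. Hdac1 was at 11.37 in TiPSC array 1, with the others at 11.17 to 11.24. Sod1 was at 12.85 in TiPSC array 3, with the others at 12.98 to 13.05.

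Another 4 named genes differed between the induced lines in a limma fit with 3 group means, adjusted over all genes. Stra8 was higher in ViPSC by 1.47 (adjusted p = 0.00146), with line differences from mESC of -0.34 and -1.81 for ViPSC and TiPSC. Acp5 was higher in ViPSC by 0.80 (adjusted p = 0.016), with 2.14 and 1.34. Apod was higher in ViPSC by 0.87 (adjusted p = 0.0422), with -1.11 and -1.98. Phgdh was lower in ViPSC, with a difference of -0.43 (adjusted p = 0.0153), from 0.12 and 0.55.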

How the results depend on the processing

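The 9 genes that passed became 37 with 3 group means, 15 with arrays centred, 15 without chromosomes 8 and 11, 16 with every autosomal probe set counted, 1733 with array weights, 70 with ViPSC arrays only and 1 with TiPSC arrays only. Leaving out 1 array gave 5 to 1304, the highest without mESC array 1. The 691 genes without overlap became 456 among genes above the median level, 1260 with every probe set counted, 3825 with ViPSC arrays only, 2725 with TiPSC arrays only, and 799 to 3897 with 1 array left out. Fewer arrays or genes enter several of these settings by construction. Otherwise the cause was not tested.

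With the replicate number as a block, 3 genes passed (Ipp, Iqcc and Rian), and 16 with 3 group means and the block. The labels do not say whether arrays with the same number share more than the number. Deviations from the group means correlated at -0.20 to 0.10 over 9 pairs with the same number, beside -0.12 to 0.20 over 18 other pairs. Such deviations cancel within each group of 3 arrays, which ties the pairs to one another. A batch shared by number was not tested.

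Small differences changed sign under some settings. Esrrb was at 0.0089 with array weights and 0.011 with TiPSC only. Lin28a was at -0.12 with array weights, -0.24 with the mean of its probe sets, -0.011 when centred and -0.19 with ViPSC only. Dlk1 was at 0.060 with TiPSC only. With 1 array left out, Myc ran from -0.038 (mESC array 3) to 0.55 (mESC array 1), Esrrb from -0.057 to 0.049, Zfp42 from -0.83 to 0.23 (mESC array 1), Lin28a from -0.15 (mESC array 3) to 0.19 and Dlk1 from -0.065 to 0.0063. Probe sets near background, such as Dlk1 at about 4, limit what these arrays can show.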

Other observations

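Genes of the sex chromosomes were left out of the comparison. Eif2s3y, a Y-linked translation factor gene, was at 8.28, 9.20 and 8.77 in ViPSC, 5.11, 8.64 and 8.80 in TiPSC and 3.73, 3.89 and 4.22 in mESC. Y-linked Kdm5d differed by 0.02, at 3.30 to 3.50 in all pluripotent arrays, and Uty by 1.24, and neither separated the groups. Xist was at 5.88 to 6.33 in the induced arrays, at 6.40, 8.06 and 7.26 in mESC, and at 11.06 in TTF and 11.50 in VM. Of 617 genes on chromosome X, 3 were higher and 44 lower in all induced arrays, where the shares of autosomal genes were 2.34% and 1.63%, with a median difference of -0.52 over 253 expressed genes. None of the 617 passed limma at an adjusted p under 0.05, and 9 higher and 250 lower had an unadjusted p under 0.05, where 7.65% of autosomal genes were higher and 3.87% lower.

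Probe sets with no symbol or several numbered 10092, of which 124 were higher (1.23%) and 117 lower (1.16%) without overlap. The widest gap on the lower side was that of a probe set at 3.34 to 3.91 in the induced and 6.97 to 7.70 in the mESC arrays, and on the higher side that of a probe set at 8.09 to 9.01 and 4.89 to 5.05.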
